A study of Mus musculus with 7 samples.

Results

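The Hoxb cluster genes were examined in RNA-seq libraries of mouse bone marrow LSK cells (Lin-Sca1+cKit+), the sorted fraction that holds hematopoietic stem cells and multipotent progenitors. The 10 genes, Hoxb1, Hoxb2, Hoxb3, Hoxb4, Hoxb5, Hoxb5os, Hoxb6, Hoxb7, Hoxb8 and Hoxb9, were selected by symbol from a table of 48440 genes. All 10 were found. The cluster was taken up with the difference of Hoxb6 between the genotypes already known, so every wild-type against knockout value of the cluster is given as a description and supports nothing.

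Donor bone marrow was wild-type or carried a constitutive, endonuclease-mediated PROSER1 knockout (PROSER1 KO), which affects every donor cell and not only stem cells. PROSER1 is a protein partner of the TET enzymes that demethylate DNA. In both groups the marrow had been transplanted into C57BL/6 recipients lethally irradiated with 9.5 Gy, and LSK cells were sorted 77 days later with no further treatment. There were 4 wild-type and 3 PROSER1 KO libraries of polyA RNA. LSK cells of the host could remain in a sort, and their share was not measured here.

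HOX proteins are homeodomain transcription factors that set position along the body axis and, in blood, act in stem and progenitor cells together with the PBX and MEIS homeodomain partners. Their genes lie in clusters, all read in the same direction, and the genes at the 3′ end of a cluster carry the low numbers and are classically switched on first in the embryo. Within the Hoxb cluster, Hoxb4 is known for expanding blood stem cells when overexpressed, Hoxb5 has served as a reporter of long-term stem cells, and enforced Hoxb8 keeps progenitors immature in culture. The cluster spans chr11:96271457-96368256 on GRCm38, a length of 96.8 kb, with Hoxb9 at the low coordinate and Hoxb1 at the high one. The 9 coding genes are read on the plus strand, and Hoxb5os, an antisense RNA, on the minus strand.

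RefSeq promoter sequence (GRCm38.p6) was at hand for 3 of the 10 genes, Hoxb1, Hoxb4 and Hoxb8, and the 250 bases before each start are shown because Hoxb4 is the most abundant and Hoxb1 the least abundant gene of the level order described below, and Hoxb8 is a low gene with a higher mean in PROSER1 KO libraries. Capitals mark the CCAAT box (CCAAT) and the TATA box (TATAAA) on either strand, so the reverse forms ATTGG and TTTATA are in capitals as well. The first is the Hoxb1 window, chr11:96365508-96365757 on the plus strand, followed by Hoxb4 at chr11:96318017-96318266 and Hoxb8 at chr11:96281655-96281904, both also on the plus strand.
Hoxb1: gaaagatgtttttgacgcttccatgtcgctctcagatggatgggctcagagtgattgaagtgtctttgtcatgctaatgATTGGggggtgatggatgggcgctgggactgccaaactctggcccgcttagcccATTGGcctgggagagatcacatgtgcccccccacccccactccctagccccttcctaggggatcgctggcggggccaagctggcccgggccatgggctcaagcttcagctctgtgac
Hoxb4: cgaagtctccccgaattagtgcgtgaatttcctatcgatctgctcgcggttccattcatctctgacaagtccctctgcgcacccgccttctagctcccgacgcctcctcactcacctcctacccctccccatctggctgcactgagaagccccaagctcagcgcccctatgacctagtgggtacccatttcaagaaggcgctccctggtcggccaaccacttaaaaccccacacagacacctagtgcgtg
Hoxb8: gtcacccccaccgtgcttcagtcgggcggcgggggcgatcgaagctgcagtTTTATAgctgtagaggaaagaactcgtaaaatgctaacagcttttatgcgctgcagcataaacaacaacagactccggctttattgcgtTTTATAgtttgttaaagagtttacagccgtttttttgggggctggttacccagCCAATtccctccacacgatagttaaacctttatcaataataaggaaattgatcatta
The Hoxb1 window held 2 CCAAT boxes, starting 171 and 117 bases before the gene start. The Hoxb8 window held 1 CCAAT box, 57 bases before the start, and 2 TATA boxes, 199 and 110 bases before it. Neither motif occurred in the Hoxb4 window. Among 32817 RefSeq promoter windows of the same length, 33.8% held a CCAAT box and 12.4% a TATA box. The E-box CACGTG, present in 6.02% of all windows, and the HOX-PBX site TGATTNAT, present in 2.83%, were found in none of the 3. The Hoxb4 window held 14 CpG dinucleotides, the Hoxb8 window 12 and the Hoxb1 window 7, against a median of 6 over all windows.

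The deposited values were read pairs per gene divided by a size factor of each library and are called normalized counts here. The libraries held 33143619 to 45140743 read pairs on genes. Proser1 itself had 2019, 2153, 2103 and 2077 normalized counts in the wild-type libraries and 2464, 2359 and 2338 in the libraries labelled PROSER1 KO. It was thus not lower in the knockout libraries. The count runs over all exons of the gene and does not test the edited part of the allele, so every direction given here rests on the labels. Of the marker genes of the sort, Kit and Ly6a were high in all 7 libraries, at 25535 to 32357 and 3961 to 6822 normalized counts. The immunoglobulin gene Ighm was the most abundant gene in every library, with 1.80% to 4.64% of all normalized counts. The summed plasma cell list of 7 markers, none at 0, overlapped between the groups. It ran from 170818 to 428871 in wild-type and from 199947 to 298722 in PROSER1 KO libraries. Jchain alone, at 254274 ± 98173 and 216244 ± 46997, made up most of this sum. The T cell genes Cd3e and Cd3g stood out in PROSER1 KO replicate 1, at 197 and 697 normalized counts against at most 24.0 and 52.9 elsewhere, while the sum of the T and innate lymphoid list overlapped (3724 to 5473 and 3349 to 5284).

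Levels of different genes were compared as normalized counts per kb of annotated exon. Hoxb4 was the highest of the cluster in wild-type LSK cells, at 304 ± 31.3 per kb (SD, n = 4), which lies at percentile 59.5 of 16195 tested genes with a known length. Hoxb3 followed at 146 ± 11.5 per kb. Hoxb5os was next at 89.5 ± 9.63 per kb, then Hoxb2 at 67.9 ± 14.7 per kb. Hoxb6 and Hoxb5 were close together at 47.4 ± 17.1 and 46.8 ± 4.10 per kb. The low end was formed by Hoxb8 at 14.8 ± 6.03 per kb, Hoxb9 at 6.44 ± 2.91 per kb, Hoxb7 at 3.94 ± 5.03 per kb and Hoxb1 at 0.388 ± 0.776 per kb. Both ends of the cluster were thus low and its centre was high.

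Of the 9 neighbouring pairs in this order, 3 had wild-type libraries that did not overlap: Hoxb4 above Hoxb3, Hoxb3 above Hoxb5os, and Hoxb5 above Hoxb8. In the other 6 pairs the libraries overlapped, so the order within those pairs does not exceed the spread. In the PROSER1 KO libraries Hoxb4 was again first, at 355 ± 30.3 per kb (SD, n = 3), and Hoxb6, at 103 ± 9.77 per kb, took a place above Hoxb2, at 93.3 ± 17.4 per kb, although these did not separate. The order of the top genes depends on how antisense exons are counted. Hoxb3 shares 2250 bases of exon, 52.9% of its length, with the antisense gene Hoxb3os on the opposite strand, and Hoxb2 shares 953 bases, or 27.3%, with the same gene. When the same counts were divided by the unshared exon length, as would fit a counting that drops reads on shared bases, Hoxb3 stood at 311 ± 24.4 per kb and no longer below Hoxb4, with overlapping libraries. The library kit keeps strand, but the strand setting of the counting was not given in the sources used here, so the level of Hoxb3 and Hoxb2 relative to the others is uncertain.

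**Figure D1:**
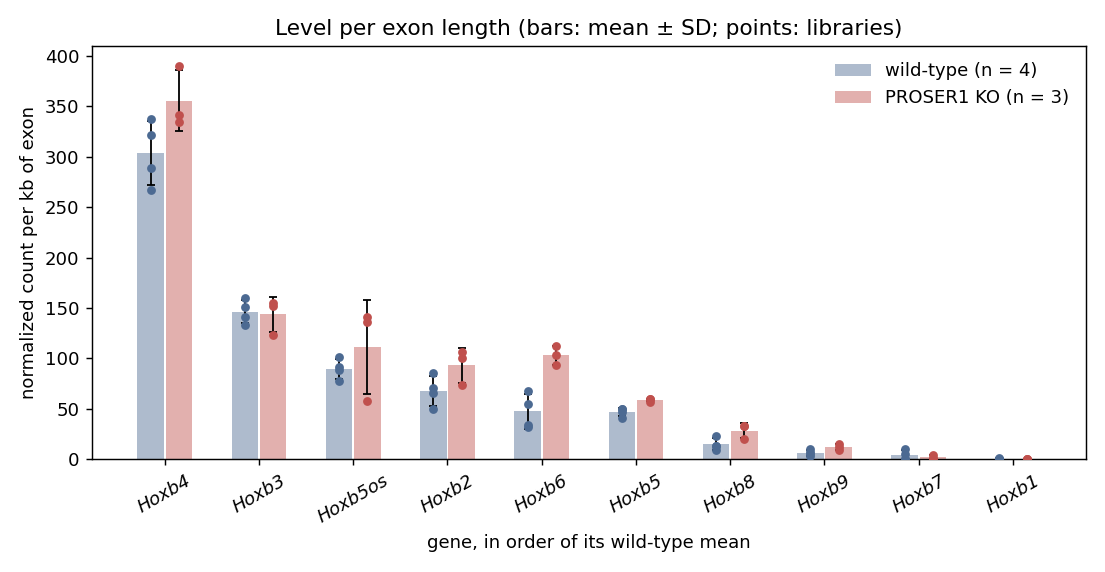
Normalized count per kb of exon for each Hoxb gene, in order of its wild-type mean; bars are group means with the SD over 4 wild-type (blue) or 3 PROSER1 KO (red) libraries, and points are libraries. Hoxb4 was highest in both groups, at 304 and 355 per kb, and Hoxb1 was lowest.

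The genotypes are compared gene by gene from the 3′ end of the cluster, in the order of the gene numbers. Hoxb1 (ENSMUSG00000018973, chr11:96365752-96368256), which patterns the hindbrain, had 0 read pairs in 6 of the 7 libraries and 4 read pairs, or 3.61 normalized counts, in wild-type replicate 2. The limit that a count of 0 allows, 3 read pairs, corresponds to 2.54 to 3.48 normalized counts in these libraries and covers counting error only. Hoxb1 was therefore at or near that limit in all libraries, and no fold change is given.

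Hoxb2 (ENSMUSG00000075588, chr11:96350525-96354012) had 245, 298, 174 and 229.5 normalized counts in the wild-type libraries, against 369, 351 and 256 in the PROSER1 KO libraries. PROSER1 KO replicates 1 and 2 lay above all wild-type libraries, whereas replicate 3 lay below wild-type replicate 2, so the groups overlapped. The mean was 237 ± 51.4 in wild-type (SD, n = 4) and 326 ± 60.7 in PROSER1 KO libraries (SD, n = 3), which is a log2 fold change of 0.47 ± 0.20. Here and below, log2 fold changes are from limma on log2(normalized count + 1), and their errors are standard errors. The added 1 draws the values of low genes toward 0, for Hoxb9 from 0.99 with 0.1 added to 0.95. DESeq2 on recovered read pairs gave 0.91 for Hoxb9, so the limma value was not the lowest.

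Hoxb3 (ENSMUSG00000048763, chr11:96323326-96347930), a gene active in early progenitors, had 567, 679.7, 599 and 639.9 normalized counts in the wild-type libraries, against 648, 524 and 659.6 in the PROSER1 KO libraries. The groups lay on top of each other, with means of 621 ± 48.9 and 610 ± 75.2 and a log2 fold change of -0.03 ± 0.11. Its antisense neighbour Hoxb3os was likewise at 384 ± 60.5 and 383 ± 28.2 normalized counts.

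Hoxb4 (ENSMUSG00000038692, chr11:96318267-96321638) had 741, 824, 686 and 865 normalized counts in the wild-type libraries, against 859, 877 and 1001 in the PROSER1 KO libraries. Wild-type replicate 4 lay just above PROSER1 KO replicate 1, and otherwise the PROSER1 KO libraries were the higher ones. The means of 779 ± 80.4 and 912 ± 77.8 gave a log2 fold change of 0.23 ± 0.098. The stem cell reporter gene Hoxb5 (ENSMUSG00000038700, chr11:96303336-96306121) had 132, 138, 114 and 138 normalized counts in the wild-type libraries, against 166, 165 and 159 in the PROSER1 KO libraries. All 3 PROSER1 KO libraries were above all 4 wild-type libraries. The means of 130 ± 11.4 and 163 ± 3.53 corresponded to a log2 fold change of 0.33 ± 0.14, a smaller shift than the ones at Hoxb6, Hoxb8 and Hoxb9 in log2 terms.

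The antisense RNA Hoxb5os (ENSMUSG00000085645, chr11:96291024-96306910, minus strand) shares 100 bases of exon with Hoxb5, 3.59% of the Hoxb5 exons and 14.4% of its own, and its span also encloses Hoxb6 without sharing exons with it. It had 63.5, 70.3, 54.0 and 61.4 normalized counts in the wild-type libraries, against 98.1, 94.8 and 40.3 in the PROSER1 KO libraries. PROSER1 KO replicates 1 and 2 were the highest of all libraries and replicate 3 was the lowest. The log2 fold change was 0.22 ± 0.32, and it ran from -0.003 without PROSER1 KO replicate 1 to 0.63 without PROSER1 KO replicate 3. In PROSER1 KO replicate 3, Hoxb6 stayed high although Hoxb5os was low, with a ratio of Hoxb6 to Hoxb5os of 5.02 against 1.93 to 2.26 in the other PROSER1 KO libraries and 1.06 to 2.17 in wild-type.

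Hoxb6 (ENSMUSG00000000690, chr11:96292476-96301569), which is expressed in blood progenitors and in the posterior embryo, had 67.3, 108, 63.2 and 133 normalized counts in the wild-type libraries, against 221, 183 and 203 in the PROSER1 KO libraries. All 3 PROSER1 KO libraries lay above the highest wild-type library. The means were 93.0 ± 33.7 and 202 ± 19.2, or 2.17-fold, and the log2 fold change was 1.18 ± 0.27. The wild-type libraries themselves differed from each other, with a coefficient of variation of 36.2% against 9.49% in PROSER1 KO libraries. The ratio of Hoxb6 to its 3′ neighbour Hoxb5 within each library, which does not depend on the size factor, was 0.51, 0.78, 0.56 and 0.97 in the wild-type libraries, against 1.33, 1.11 and 1.27 in PROSER1 KO libraries. Hoxb6 thus passed Hoxb5 in counts in each PROSER1 KO library and in no wild-type library. Counts are not corrected for exon length. Per kb, Hoxb6 was above Hoxb5 in wild-type replicates 2 and 4 as well, at 55.1 against 49.5 and 67.9 against 49.5. Without PROSER1 KO replicate 1, the library with the T cell genes, the log2 fold change of Hoxb6 was 1.11.

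Hoxb7 (ENSMUSG00000038721, chr11:96286623-96290162) was counted with 0, 9, 0 and 14 read pairs in the wild-type libraries, against 1, 2 and 7 in the PROSER1 KO libraries. Wild-type replicates 2 and 4 were the highest, replicates 1 and 3 were at 0, and the PROSER1 KO libraries lay between them. It sits between Hoxb6 and Hoxb8, both higher on average, and was too low to be tested.

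Hoxb8 (ENSMUSG00000056648, chr11:96281905-96285315) had 61.5, 35.2, 34.5 and 24.3 normalized counts in the wild-type libraries, against 85.5, 51.6 and 86.4 in the PROSER1 KO libraries. Only wild-type replicate 1 lay above a PROSER1 KO library, replicate 2. The means of 38.9 ± 15.9 and 74.5 ± 19.8 gave 1.92-fold and a log2 fold change of 0.96 ± 0.34. Hoxb9 (ENSMUSG00000020875, chr11:96271457-96276595), the most posterior-type gene of the 10, had 19.2, 13.5, 8.05 and 25.5 normalized counts in the wild-type libraries, against 31.3, 38.9 and 23.0 in the PROSER1 KO libraries. Here only wild-type replicate 4 reached into the PROSER1 KO range. The means of 16.6 ± 7.50 and 31.1 ± 7.94 gave 1.88-fold and a log2 fold change of 0.95 ± 0.43.

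For the cluster as a whole, 8 of the 10 genes had a mean of at least 10 normalized counts and entered the fit, and Hoxb1 and Hoxb7 did not. Of these 8, 7 had a positive log2 fold change, beside 50.6% of all 16251 genes tested. The median was 0.40 against 0.0015 over all genes. The groups did not overlap, with PROSER1 KO higher, for 2 of the 8 genes (Hoxb5 and Hoxb6), beside 5.17% of all genes tested, and for none with PROSER1 KO lower, beside 4.83%. At an adjusted p under 0.05 and a fold above 1.5, limma called 0 of the 8, beside 0.258% of all genes, and 5 of the 8 had an unadjusted p under 0.05, beside 9.73% of all genes. EdgeR on the recovered read pairs called 0 of the 8, beside 0.246%, and DESeq2 called Hoxb6, 1 of the 9 Hoxb genes to which it gave an adjusted p (all but Hoxb1), beside 0.873% of all such genes. Because the cluster was chosen with this contrast known, nothing is read from these shares. In bulk RNA, a different share of cells expressing a gene and a different amount per cell cannot be told apart.

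Among the tested coding genes, the difference was not the same size along the cluster. At the 3′ side, Hoxb2, Hoxb3, Hoxb4 and Hoxb5 had log2 fold changes of -0.03 to 0.47, and their summed normalized counts were 1686, 1939.9, 1572 and 1872 in the wild-type libraries, against 2042, 1917 and 2077 in PROSER1 KO libraries. Wild-type replicate 2 reached into the PROSER1 KO range, and the ratio of the means was 1.14. At the 5′ side, Hoxb6, Hoxb8 and Hoxb9 had log2 fold changes of 0.95 to 1.18, and their sums were 148, 157, 106 and 183 in the wild-type libraries, against 338, 273 and 312 in PROSER1 KO libraries. Here the groups did not overlap and the ratio of the means was 2.07. Hoxb6, whose difference was known beforehand, gave most of this sum, and without it Hoxb8 and Hoxb9 summed to 80.8, 48.7, 42.5 and 49.8 in the wild-type libraries, against 117, 90.5 and 109 in PROSER1 KO libraries, a ratio of 1.90. Hoxb7, in the same stretch but not tested, was not in the sum, and with it the ratio was 2.01. This division was drawn after the values were seen, and the difference between both sides was not tested. Hoxb5os, which overlaps both sides, was left out of both sums. Of other loci on the 3′ side, the microRNA locus Mir10a was at a log2 fold change of 0.78 ± 0.40 and Hoxb3os at 0.0056 ± 0.14. Neither was in the sums. Hoxb8 and Hoxb9 were also the lowest tested genes of the cluster in wild-type LSK cells, whereas Hoxb6 was level with Hoxb5 per kb. The part of the level in these differences was not tested.

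**Figure D2:**
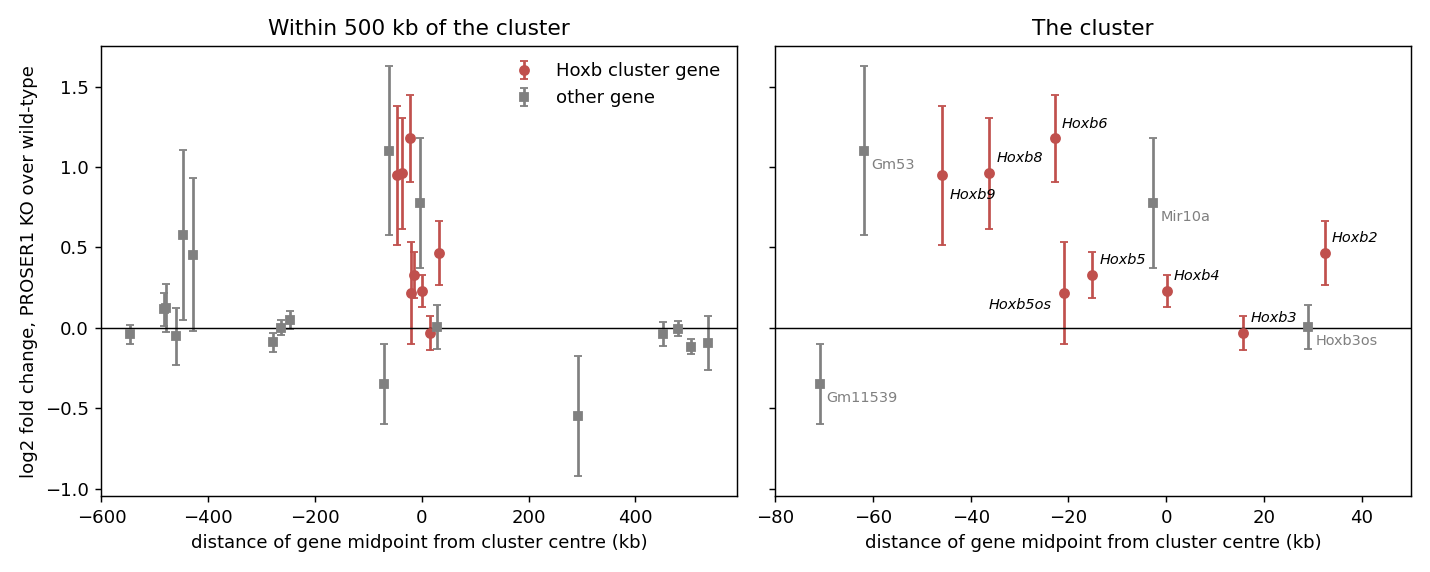
Log2 fold change of PROSER1 KO over wild-type (points, with the standard error as bars) against the distance of each gene's midpoint from the centre of the cluster in kb, for tested genes within 500 kb (left) and in the cluster (right); red circles are Hoxb genes and grey squares other genes. Hoxb6, Hoxb8 and Hoxb9 lie at 0.95 to 1.18, left of Hoxb2 to Hoxb5 at -0.03 to 0.47.

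Each library was also followed across the genes by the deviation of log2 values from the mean over the 7 libraries. Averaged over the 8 tested genes, this was -0.16, -0.12, -0.54 and -0.11 in the wild-type libraries, against 0.44, 0.30 and 0.17 in PROSER1 KO libraries. Wild-type replicate 3 was the lowest library for Hoxb2, Hoxb4, Hoxb5, Hoxb6 and Hoxb9. The genes did not move as one: Hoxb8 was lowest in wild-type replicate 4, where Hoxb6 and Hoxb9 were at their wild-type highest. The closest pair of genes by the root mean square difference of these profiles was Hoxb4 and Hoxb5, at 0.10 log2 units over 7 libraries, and the farthest was Hoxb5os and Hoxb8, at 0.73.

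**Figure D3:**
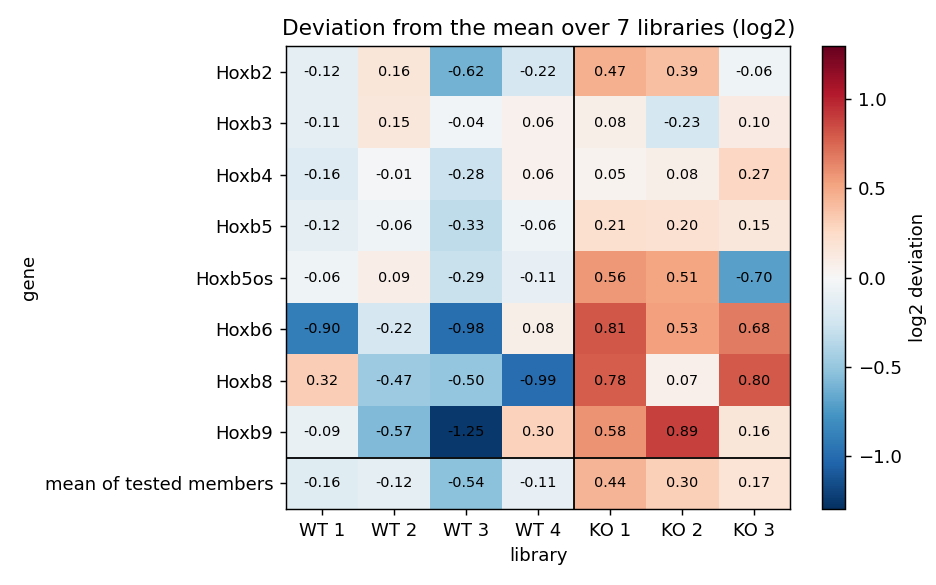
Deviation of log2(normalized count + 1) from its mean over 7 libraries, for the 8 tested Hoxb genes and their mean (bottom row), by library; red is above and blue below the gene's mean. The mean row is negative in all 4 wild-type libraries (-0.54 to -0.11) and positive in all 3 PROSER1 KO libraries (0.17 to 0.44).

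Of 13038 other genes with a mean of at least 50 normalized counts, the 5 nearest to the mean Hoxb profile by the same measure were Cnr2 (0.0975 log2 units over 7 libraries), Lrrc8a (0.0983), Mmrn1 (0.113), Edar (0.118) and Zfp456 (0.119). The median over all these genes was 0.328. Mmrn1 encodes multimerin 1, a protein of platelets and endothelium, and had 2808 ± 305 and 4236 ± 258 normalized counts (log2 fold change 0.60 ± 0.084). It was among the genes called by limma, and the other 4 were not. The likeness takes in the difference between the genotypes, so these calls are no separate result. None of the 5 lies on chromosome 11.

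The paralogs give the nearest comparison. In wild-type LSK cells the Hoxa cluster was the most abundant by length: Hoxa9, a driver of progenitor self-renewal, was at 741 ± 48.7 per kb and Hoxa7 at 688 ± 31.8 per kb, both above Hoxb4. Hoxb4 exceeded its paralog Hoxa4 (24.2 ± 3.35 per kb), and Hoxb3 exceeded Hoxa3 (92.7 ± 6.47 per kb) over whole exons. The reverse held for Hoxb5 against Hoxa5 (344 ± 48.5 per kb), for Hoxb6 against Hoxa6 (234 ± 14.0 per kb) and for Hoxb9 against Hoxa9. Of the Hoxa cluster, 9 of 11 genes were tested and limma called 0, with a median log2 fold change of 0.18 and the lowest, -0.30, at Hoxa4. Of these, 1 gene had an unadjusted limma p under 0.05, beside 9.73% of all genes tested, and edgeR and DESeq2 called 0. Hoxa3 and Hoxa10 did not overlap between the groups, with PROSER1 KO higher (0.18 ± 0.082 and 0.19 ± 0.078), which is 2 of the 9 tested, beside 5.17% of all genes tested. The paralog Hoxa6 had 204 ± 12.2 and 241 ± 38.6 normalized counts (log2 fold change 0.23 ± 0.14), and Hoxa9 had 4136 ± 272 and 3894 ± 287 (-0.09 ± 0.067), beside 1.18 and 0.95 for Hoxb6 and Hoxb9. Of the other paralogs, Hoxa2 was at -0.24 ± 0.20 beside 0.47 for Hoxb2, and Hoxa5 at 0.24 ± 0.12 beside 0.33 for Hoxb5. Hoxa7 was at -0.07 ± 0.070, and its paralog Hoxb7 was not tested. Whether the paralogs differ from the Hoxb genes in this was not tested.

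The Hoxc cluster was low, and 2 of its 9 genes were tested. Hoxc6 had 12.5, 16.2, 16.1 and 27.8 normalized counts in the wild-type libraries, against 29.2, 33.8 and 59.5 in the PROSER1 KO libraries (log2 fold change 1.12 ± 0.39, limma adjusted p = 0.381), close in size to its paralog Hoxb6. Hoxc4 had 3.85, 5.41, 4.60 and 1.16 normalized counts in the wild-type libraries, against 9.39, 28.8 and 22.1 in the PROSER1 KO libraries (2.13 ± 0.59, limma adjusted p = 0.259). Neither overlapped between the groups, beside 5.17% of all genes tested with PROSER1 KO higher. Both, however, rested on 1 to 62 read pairs in a library. Neither was called by limma, edgeR or DESeq2, although both had an unadjusted limma p under 0.05, beside 9.73% of all genes tested. Hoxc5, a paralog of Hoxb5, was too low to be tested. It had 1, 3, 0 and 6 read pairs in the wild-type libraries, against 14, 17 and 6 in the PROSER1 KO libraries. The paralogs Hoxc8 and Hoxc9 and all Hoxd genes were at or near 0, with Hoxd8 and Hoxd9 reaching at most 7 read pairs in a library.

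**Figure D4:**
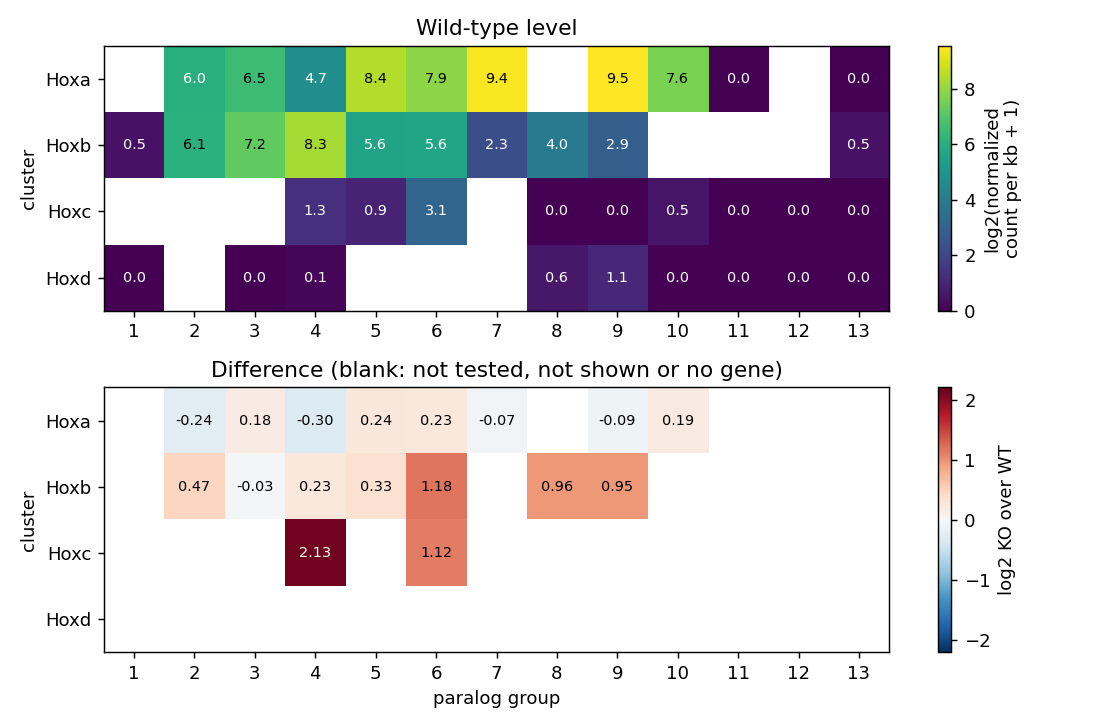
Hox genes by cluster (rows) and paralog group (columns); the upper panel gives the wild-type mean as log2(normalized count per kb of exon + 1), the lower panel the log2 fold change of PROSER1 KO over wild-type for tested genes, and blanks are places with no gene or a gene not shown or, below, not tested. Hoxb4 is the highest Hoxb gene, and the largest lower-panel values are Hoxc4 (2.13), Hoxb6 (1.18) and Hoxc6 (1.12).

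In the cluster and within 500 kb of its ends lay 43 other genes of the table, and 18 of them were tested. Limma, edgeR and DESeq2 called 0 of the 18 tested genes, beside 0.258%, 0.246% and 0.873% of all genes. Of the 18, 1 had an unadjusted limma p under 0.05, beside 9.73% of all genes tested. Their median log2 fold change was -0.0025. The highest was Gm53, a long noncoding RNA whose end lies 6.59 kb from Hoxb9 on its 5′ side, with 12.5, 25.2, 12.6 and 4.64 normalized counts in the wild-type libraries, against 20.9, 37.2 and 24.0 in the PROSER1 KO libraries (1.10 ± 0.53). Its groups overlapped. The lowest was Skap1, a T cell adaptor gene on the 3′ side, at -0.55 ± 0.37. Inside the cluster, the locus of Mir10a, a microRNA hairpin upstream of Hoxb4, had 18.1 ± 6.13 and 31.9 ± 13.2 normalized counts (0.78 ± 0.40). Such polyA reads come from longer transcripts across the hairpin and do not measure the mature microRNA.

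The partners and regulators of HOX proteins were read from the same fit. Of 9 genes of the TALE homeodomain family (PBX, MEIS and PKNOX), 8 were tested and limma, edgeR and DESeq2 called 0, with a median log2 fold change of -0.06. Of the 8, 3 had an unadjusted limma p under 0.05, beside 9.73% of all genes tested. The highest was Pbx3, at 399.5 ± 35.4 and 534 ± 115 normalized counts (0.40 ± 0.14), and the lowest Meis3, at 103 ± 22.2 and 59.2 ± 27.8 (-0.86 ± 0.32). Meis1, the abundant MEIS gene of stem cells, had 7943 ± 338 and 7528 ± 329. Of 18 factors known to bind or regulate Hox loci, 15 were tested, 0 were called by any of the 3 tools, 1 of the 15 had an unadjusted limma p under 0.05, beside the same 9.73%, and the log2 fold changes ran from -0.06 (Men1, menin) to 0.16 (Kmt2a, the MLL1 methyltransferase). Cdx2 and Cdx4, homeobox activators of Hox genes in the embryo, were at 0 in all libraries.

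Stem cell markers were read beside the Hoxb genes because Hoxb4 and Hoxb5 are used as stem cell genes. Of 10 long-term stem cell markers, all were tested, limma, edgeR and DESeq2 called 0 and 2 of the 10 had an unadjusted limma p under 0.05, again beside 9.73% of all genes. The log2 fold changes ran from -0.25 (Mecom, ± 0.071) to 0.66 (Vwf, ± 0.30). Their summed normalized counts were 25454 to 28208 in wild-type and 25932 to 27407 in PROSER1 KO libraries, with none of the 10 at 0, and Hlf alone, at 14088 ± 1767 and 12406 ± 1033, made up much of this sum. One by one, 8 of the 10 markers had a positive log2 fold change, beside 50.6% of all genes tested. Some of these 8 lay within their standard error of 0. Fgd5 (0.22 ± 0.082) and Mllt3 (0.15 ± 0.076) were higher in PROSER1 KO libraries without overlap, beside 5.17% of all genes tested. Mecom was lower without overlap, beside 4.83%. The summed megakaryocyte and erythroid list of 8 genes ran from 5727 to 7035 in wild-type and from 6447 to 8667 in PROSER1 KO libraries, also overlapping and with none at 0. In this and the remaining marker lists limma and edgeR called 0, beside 0.258% and 0.246% of all genes. An unadjusted limma p under 0.05 went to 1 of 8 multipotent and lymphoid-primed progenitor genes and 1 of 8 megakaryocyte and erythroid genes. The same held for 2 of 8 granulocyte and monocyte genes, 2 of 6 B cell genes and 0 of 7 plasma cell genes. It also held for 1 of 7 T and innate lymphoid and 2 of 6 mast cell and basophil genes, beside 9.73% of all genes. The log2 fold changes ran from -0.08 (Il7r) to 0.80 (Rag1) for multipotent and lymphoid-primed progenitors. For megakaryocyte and erythroid cells they ran from -0.40 (Hba-a1) to 0.49 (Klf1), and for granulocytes and monocytes from -0.44 (Ctsg) to 0.47 (Csf1r). They ran from -0.61 (Ms4a1) to 0.99 (Pax5) for B cells, from -0.49 (Prdm1) to -0.17 (Jchain) for plasma cells, from -0.86 (Ncr1) to 1.61 (Cd3g) for T and innate lymphoid cells, and from -0.83 (Mcpt8) to 0.23 (Cpa3) for mast cells and basophils. DESeq2 called Id2 and Mcpt8, both lower in PROSER1 KO libraries, beside 0.873% of all genes to which it gave an adjusted p. The part of cell composition in the Hoxb values was not tested.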

How the data were processed

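The libraries of LSK cells sorted from bone marrow chimeras, 4 wild-type and 3 PROSER1 KO, were grouped by the genotype labels. The authors prepared libraries with a directional kit from RNA that the labels give as polyA, trimmed reads, aligned them with STAR to mm10, summarized pairs with featureCounts and deposited values that are counts divided by size factors, a normalized signal. These were whole multiples of a step in each library, 100% within 0.01 of a whole number, so read pairs were recovered from the deposited signal. The labels call the libraries biological replicates, but nothing says whether they came from separate mice or pools. P-values therefore set the difference between the groups against the spread between these libraries. Within groups, any 2 libraries differed beyond the noise of sampling (chi-square over its degrees of freedom 27.8 to 88.0), so no library was merged.

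Genes with a mean of at least 10 were fitted as log2(normalized count + 1) with limma 3.58.1 (trend), over all 16251 such genes, and called at a Benjamini-Hochberg adjusted p under 0.05 and a fold above 1.5. The fit was also run on simulated data, with planted changes larger than most of the Hoxb differences. That run does not show whether smaller differences are detected. DESeq2 1.42.0 and edgeR 4.0.16 were run on the recovered read pairs. Counts were deposited as normalized values, so the limma fit is the main one. Exon lengths and positions are from GENCODE M21 (GRCm38). The methods name M25 and the table header M10, and 48058 of 48440 gene identifiers, with all 10 Hoxb genes, were in M21.

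The members and lists were chosen with earlier results of these data known. Named are all Hoxb genes, their paralogs and exon-sharing genes, Proser1, the called, highest and lowest genes of each list, and the 5 genes nearest in profile. Genes outside this rule (Mir10a, Meis1, Cd3e, Ighm, Id2, Hlf, Fgd5, Mllt3) were named after their values were seen, and 1 gene that the rule names is not reported here. Replicate numbers did not pair the libraries. Intervals of counts and the limit of 3 read pairs cover counting error only.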

Additional observations from a re-analysis of the deposited data

Results flagged for a closer look

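Hoxb1 in wild-type replicate 2, at 3.61 normalized counts, stood apart from the other 3 wild-type libraries, which were all at 0, and the gap made up the whole range of the group. The value rests on 4 read pairs, against a limit of 3 that a count of 0 allows. All 10 Hoxb genes were checked in this way in the wild-type group. Chance flags about 1 in 20 groups of continuous values, a rate that does not hold here, because with 3 libraries at 0 any count in the other library is flagged whatever its size.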

How the results depend on the processing

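The count of all genes called was 42 by limma. It was 165 by DESeq2 on recovered read pairs, 40 by edgeR, and 23 to 42 when 1 library was left out, the lowest without PROSER1 KO replicate 2. The paper used DESeq2 with default parameters at the same thresholds and reported the same number, 165. Of the Hoxb genes, DESeq2 called 1 (Hoxb6, adjusted p = 0.00201) and limma 0. For Hoxb6, limma gave an adjusted p of 0.160 and edgeR 0.197, and leaving out libraries moved the limma value from 0.0833 to 0.412. No other setting called a Hoxb gene, and no setting called a gene of the partner, regulator, other Hox or neighbourhood lists. The cause was not tested.

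The log2 fold change of Hoxb6 ran from 1.02 to 1.37, of Hoxb8 from 0.77 to 1.20 and of Hoxb9 from 0.65 to 1.18 over all settings. The sign changed only for Hoxb3 (-0.09 to 0.08) and, without PROSER1 KO replicate 1, for Hoxb5os (-0.003). The number of separated neighbours in the level order was 3 to 5 when a wild-type library was left out, 5 without replicate 2 or replicate 4, and fewer libraries leave less range to overlap. A replicate block called 35 genes and 0 Hoxb genes. The numbers were not taken to pair the libraries, since deviations of same-numbered libraries correlated at 0.0226, 0.0575 and -0.106, and only replicate 1 correlated best with its own number. Depth limits Hoxb1, Hoxb7 and Hoxc4, which rest on few read pairs.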
